A study of Caenorhabditis elegans with 22 samples.

Results

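Seam cells of *set-25* mutant L3 larvae were compared with seam cells of N2 larvae by RNA-seq. The comparison rests on 4 of the 22 libraries of the series, 2 biological replicates of *set-25* and 2 of N2, chosen by tissue and genotype and not by any measured value. The *set-25* animals carried *set-25(n5021)* III. The seam cells of *met-2(n4256)* III and of the *met-2(n4256) set-25(n5021)* double mutant, with 2 libraries each, served as further groups, and N2 and *set-25* body wall muscle was used where the tissues were compared. Every seam strain, N2 included, also carried the reporters *wIs51[scm::gfp]* V and *mjIs15[ajm-1::mCherry]*, so the N2 seam group is not an unmarked Bristol strain. Living cells were taken by flow cytometry as positive for both reporters. The *met-2* and *set-25* alleles act in the whole animal, so a change in seam cells need not start there. Of 20392 genes counted, 12591 had enough reads to be tested.

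SET-25 is a methyltransferase that trimethylates lysine 9 of histone H3, and MET-2 is the SETDB1-like enzyme that deposits mono- and dimethylation at the same residue. H3K9 methylation is a mark of heterochromatin, where it is known for the repression of repeats and of genes of other tissues and for the anchoring of chromatin at the nuclear rim. Seam cells are the lateral stem-like cells of the larval epidermis. They divide at each larval stage, give nuclei to the syncytial hypodermis (hyp7), and secrete cuticle collagens, hedgehog-related proteins and other cuticle components in step with the moulting cycle.

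The seam libraries held 18114744 to 24752059 counts. In the *set-25* libraries 9778 and 9810 genes reached 10 counts, against 11749 and 10927 in N2, and the 10 most abundant genes took 15.4% and 15% of *set-25* counts against 11.6% and 13% of N2 counts. Mitochondrial genes took 2.45% and 2.13% of N2 counts and 1.52% and 1.44% of *set-25* counts, and the part of these library differences in the falls was not tested. The *set-25* transcript itself had 33.1 and 30.5 CPM (counts scaled to the library total) in N2 and 17.1 and 17.3 CPM in *set-25*, a fitted log2 change of -0.60 ± 0.12 (SE, adjusted p = 0.00783) that lay under the 2-fold rule. *met-2* had 39.3 and 37 CPM in N2 and 30.1 and 27.3 CPM in *set-25*. The counts do not resolve exons, so they cannot show a deletion within a gene. Reads assigned to defining markers of gut and muscle were not absent. The gut factor *elt-2* had 9 and 4 counts in N2 against 5 and 1 in *set-25*, and the gut esterase *ges-1* had 16 and 20 against 1 and 2. Muscle myosin *unc-54* had 2615 and 2541 CPM in N2 and 4367 and 4118 CPM in *set-25*. In contrast *myo-3*, another muscle myosin, had 24.3 and 23.2 against 14.5 and 11.2 CPM. Whether the *unc-54* reads came from muscle cells was not tested.

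Loss of *set-25* went with lower transcript levels far more often than with higher ones. A gene was called where the quasi-likelihood test of edgeR gave a Benjamini-Hochberg adjusted p under 0.01 and log2(scaled count + 8) differed by more than 2-fold. By this rule 1295 genes (10.3% of those tested) were lower in *set-25* and 43 (0.342%) were higher. At an unadjusted p under 0.05, 3184 genes were lower and 2295 higher. The fitted log2 change had a median of -2.81 over the called falls and 1.67 over the called rises. Of the falls, 918 exceeded 4-fold and 343 exceeded 16-fold, whereas 13 rises exceeded 4-fold. All 1295 falls and all 43 rises had both libraries of a group above both of the other, and among all genes tested 6254 were lower in this way and 1813 higher.

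The fallen genes together took 4.82% and 5.81% of counts in the N2 libraries and 1.18% and 1.04% in the *set-25* libraries. Their median level went from 10.2 to 1.01 RPKM (counts scaled to the library total and to exonic width), while the risen genes went from 6.97 to 20.2 RPKM. In *set-25*, 37 of the fallen genes had 0 counts in both libraries and 89 had 1 to 3 counts in all. The second N2 library mattered most: without it 688 genes were lower and 26 higher, and without the first N2 library 961 and 37. Of the falls, 548 were called under the fit as reported and under all 10 refits with another scaling, filter, test or set of libraries, as were 15 of the rises. When N2 and *set-25* libraries were fitted without the other genotypes, 640 genes were lower and 32 higher.

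**Figure D1:**
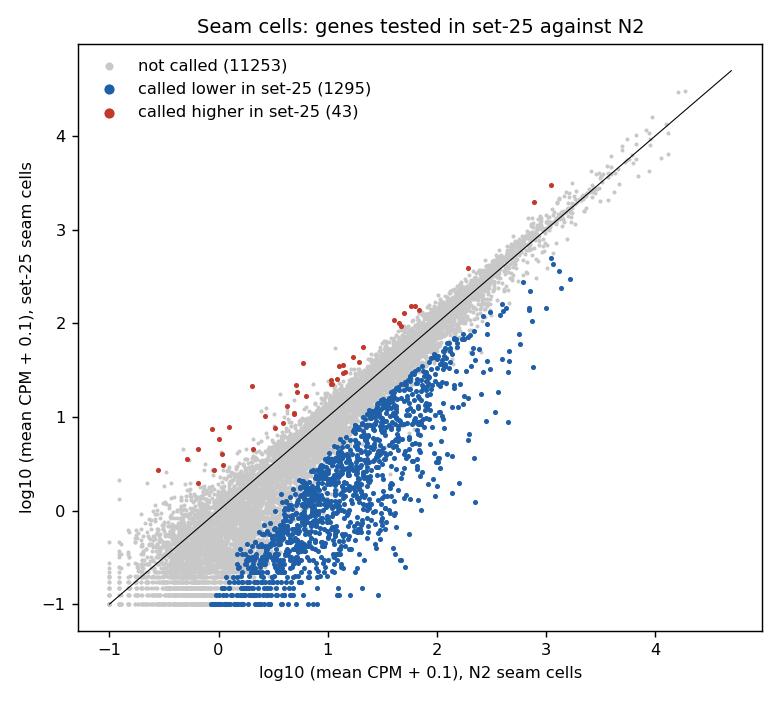
Mean level of each tested gene in N2 (x axis) and *set-25* (y axis) seam cells, each as log10(CPM + 0.1) over 2 libraries, with the line of equal level. Blue points are the 1295 genes called lower and red points the 43 called higher. The blue points spread far below the line at low and middle levels, and the red points lie close above it.

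On library totals the median log2 change of all genes tested was -0.34, and with the TMM factors of the main fit it was -0.05, because the TMM factors of the *set-25* libraries (0.818 and 0.866) were below those of N2 (1.05 and 1.00). CPM values below are on library totals, and fitted log2 changes are relative to the TMM factors. On library totals alone 1577 genes were lower and 39 higher, and 1243 and 45 with size factors of DESeq2.

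None of 5 transcription factors that specify seam cells was called. *elt-1*, the GATA factor of epidermal fate, had 193 and 160.1 CPM in N2 and 173 and 137 CPM in *set-25*. The engrailed-like factor *ceh-16* had 11.3 and 11.4 against 7.10 and 8.33 CPM, and the GATA factor *egl-18* 68.0 and 55.5 against 64 and 42.6 CPM. The RUNX factor *rnt-1* had 8.39 and 5.74 against 9.67 and 8.90 CPM and its CBFβ partner *bro-1* 51.2 and 48.7 against 67.3 and 61.2 CPM. *bro-1* passed the adjusted p (0.00672) but not the 2-fold rule. Of 16 tested members of a seam cell identity list, 4 (25%, against 10.3% of all genes) were lower (*grd-10*, *grd-3*, *grd-13* and *cki-1*) and 0 higher. In the fit 10 of the 16 lay above 0. The list's median of 0.14 became -0.16 on library totals.

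The *grd* genes encode secreted hedgehog-related proteins, and the *ptr* genes encode Patched-related membrane proteins. *grd-10*, which is expressed in seam cells, had 1603 and 1709 CPM in N2 and 433 and 166 CPM in *set-25* (-2.16 ± 0.41, adjusted p = 0.00494). *grd-3* had 732 and 673 CPM in N2 and 215 and 76.1 CPM in *set-25*, and *grd-13* 683 and 731 CPM against 184 and 91.4 CPM. All 3 were lower in both *set-25* libraries, the first of which stayed at more than 2-fold the level of the second. Of 12 tested *grd* genes 7 (58.3%) were lower and the median fitted change was -2.01, with all 12 below 0. The calls of *grd-10* and *grd-3* were lost without either N2 library, and 4 *grd* genes were lower without the second N2 library. Of 24 *ptr* genes 7 (29.2%, against 10.3% of all genes) were lower, and 3 were without the second N2 library. Among the 7 was *ptr-25* (45.9 and 36.5 CPM in N2, 7.30 and 3.81 CPM in *set-25*). The *wrt* genes, whose products carry a Hog domain, had 1 fall in 9 (11.1%, against 10.3% of all genes). It was *wrt-1*, from 55.6 and 63.8 to 9.18 and 7.47 CPM, and 6 of the 9 lay above 0 in the fit, with a family median of 0.29. *osm-11*, a secreted co-ligand of the Notch pathway expressed in seam cells, had the smallest p of the falls. It had 555 and 594 CPM in N2 and 55.3 and 66.2 CPM in *set-25* (-2.96 ± 0.14, adjusted p = 5.02e-05), a 9.46-fold difference with replicates close to each other in both groups.

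*cki-1*, a cyclin-dependent kinase inhibitor that holds cells in G1, went from 43.5 and 36.3 to 12.2 and 8.61 CPM (-1.64 ± 0.19, adjusted p = 0.000548), and was the 1 called gene of 43 in a cell cycle list. Of 12 hypodermis genes 2 (16.7%, against 10.3% of all genes) were lower, *elt-3* and *eff-1*, and 5 lay above 0 in the fit. The GATA factor *elt-3*, which is active in hyp7, had 54.4 and 49.3 CPM in N2 and 5.38 and 1.76 CPM in *set-25* (-3.56 ± 0.43). The fusogen *eff-1*, which drives the fusion of epidermal cells, had 24.8 and 16.8 against 3.21 and 1.28 CPM. The summed level of the list was 17722 and 17508 CPM in N2 and 33005 and 28507 CPM in *set-25*. That sum is set by the collagen *sqt-3* (16139.5 and 16047 CPM in N2, 31808 and 27554 CPM in *set-25*), which was chosen for mention after its values were seen. *sqt-3* passed the adjusted p (0.00264) but not the 2-fold rule.

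**Figure D2:**
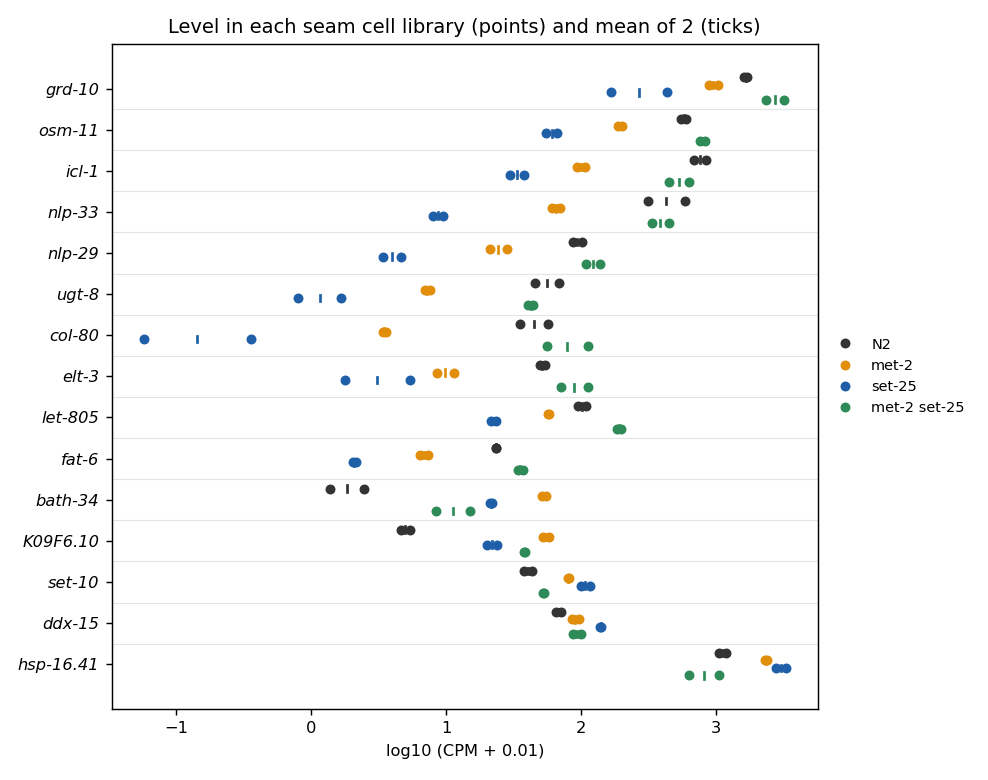
Level of 15 genes in each seam cell library as log10(CPM + 0.01), with points for libraries, ticks for the mean of 2, and colours for genotype. For the 10 genes from *grd-10* to *fat-6* the *set-25* points lie left of all others, and the *met-2 set-25* points lie nearer to N2 than to *set-25*. For *bath-34* to *hsp-16.41* the *set-25* points lie right of N2.

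Antimicrobial peptide genes of the epidermis had one of the larger shares of falls. These *nlp* and *cnc* genes encode small glycine-rich secreted peptides that the epidermis induces on fungal infection or wounding. Of 19 tested, 12 (63.2%) were lower and 0 higher, with a median fitted change of -3.24. *nlp-33* had 315 and 586 CPM in N2 and 9.52 and 7.95 CPM in *set-25* (-5.41 ± 0.34, adjusted p = 8.85e-05). *nlp-29*, the best-known infection-induced member, had 86.9 and 101 CPM in N2 and 4.59 and 3.38 CPM in *set-25* (-4.27 ± 0.23). *nlp-31* had 68.9 and 123 against 1.38 and 1.28 CPM, and *nlp-30* 23 and 60.3 against 0.888 and 0.809 CPM. In all 4 both *set-25* libraries lay far under both N2 libraries, and N2 replicate 2 was above replicate 1. Between 9 and 12 members were called with any of the 4 libraries left out. The copies *nlp-27* to *nlp-31* are similar in sequence, so reads could be split or lost among them.

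Of 120 tested cuticle collagen genes of the *col* family, 46 (38.3%) were lower and 0 higher (5 at an unadjusted p under 0.05, and 0 by DESeq2), with a median fitted change of -1.76. Of 9 *col* genes above 1000 CPM in N2, 2 were lower (*col-98* and *col-103*), of 86 between 1 and 1000 CPM 43 were lower, and of 25 under 1 CPM 1 was lower. These shares were not tested against each other, and *col-103* lay near the 1000 CPM bound. *col-80* had 35 and 56.6 CPM in N2 and 0.345 and 0.0476 CPM in *set-25*, which is 7 and 1 counts (-7.56 ± 0.59, adjusted p = 0.000131). *col-58* went from 19.9 and 82.3 CPM, N2 replicates more than 4-fold apart, to 0.247 and 0.0476 CPM. *col-98* had 1516 and 1235 CPM in N2 and 373 and 105 CPM in *set-25*, and *col-103* 1111 and 898 against 222 and 71.2 CPM. The summed level of the family was 43923 and 60870 CPM in N2 and 23565 and 36652 CPM in *set-25*.

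The collagens known for body shape when mutated (*dpy*, *sqt*, *rol* and *bli* genes) were counted apart. Of 18 tested, 0 were called by edgeR, and DESeq2 called 2 lower. At an unadjusted p under 0.05 there were 5 higher and 3 lower. Their summed level was 58584 and 63055 CPM in N2 and 86466 and 82343 CPM in *set-25*. *dpy-7* and *dpy-10*, chosen after their values were seen, had 143 and 105 against 145 and 73.8 CPM and 188 and 144 against 201 and 97.9 CPM. The groups overlapped for both. Of 16 genes of collagen processing 2 (12.5%, against 10.3% of all genes) were lower, *dpy-31*, a procollagen C-protease, and *mlt-7*, a peroxidase. *mlt-7* went from 125 and 111 to 48.8 and 59.9 CPM, and 10 of the 16 lay above 0 in the fit.

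Moulting genes were mixed. Of 33 tested, 6 (18.2%, against 10.3% of all genes) were lower (*nekl-2*, *nas-36*, *nekl-3*, *bli-5*, *ptr-23* and *mlt-7*) and 0 higher by edgeR or DESeq2. Without the second N2 library 2 were lower. An unadjusted p under 0.05 was found for 10 above and 9 below N2. The median of 0.21 became -0.10 on library totals. *nekl-3*, a NIMA-family kinase needed to shed the cuticle, had 6.14 and 9.0 CPM in N2 and 0.987 and 0.809 CPM in *set-25* (-2.78 ± 0.35). *mlt-10*, a moulting gene with an oscillating transcript, was not called, at 375 and 333 CPM in N2 and 483 and 552 CPM in *set-25*. The nuclear receptor *nhr-23*, which drives the moulting cycle, had 259 and 206 against 169 and 59.4 CPM, and *lin-42*, the worm Period homologue, 193 and 186 against 301 and 199 CPM. In *set-25*, 9 of the 33 genes had the first library more than 2-fold above the second and 2 the reverse, as did 5 and 0 of the body-shape collagens. Of 4647 tested genes above 20 CPM in N2, 142 and 71 did. The *set-25* replicates thus differed in moulting genes, and the part of this difference in other falls was not tested.

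**Figure D3:**
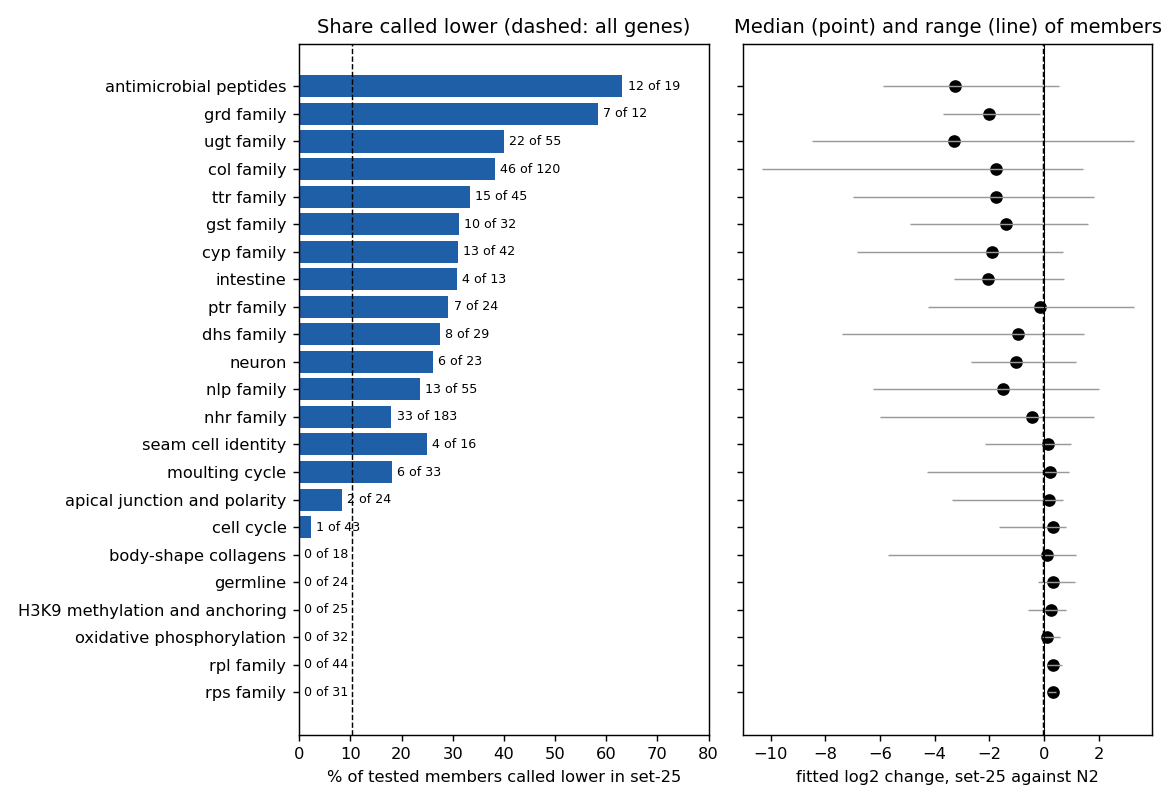
Left, share of tested members called lower in *set-25* for each gene list (bars, with counts) and for all genes (dashed, 10.3%). Right, median (point) and range (line) of the fitted log2 change of the members, with the median of all genes dashed. Antimicrobial peptides (12 of 19) and *grd* genes (7 of 12) have the longest bars, and ribosomal protein, oxidative phosphorylation and germline lists have none.

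Many genes of detoxification families fell. UDP-glucuronosyltransferases (*ugt*), which conjugate small molecules, had 22 falls (40%, against 10.3% of all genes) and 1 rise in 55 tested genes. The median fitted change was -3.29, or -2.59 with genes at 0 set to their bound. *ugt-8* went from 45.4 and 68.1 to 0.789 and 1.67 CPM (-5.24 ± 0.33, adjusted p = 8.85e-05), and *ugt-41* from 29.7 and 37.8 to 0.789 and 1.14 CPM. The rise, *ugt-57*, had 0.703 and 0.386 CPM in N2 and 2.22 and 6.71 CPM in *set-25*. Without the second N2 library 13 *ugt* genes were lower. Of 42 cytochromes P450 (*cyp*) 13 (31%, against 10.3% of all genes) were lower, led by *cyp-35C1* (7.82 and 14.2 CPM in N2, 0.296 and 0.190 CPM in *set-25*). Without the second N2 or the second *set-25* library 4 *cyp* genes were lower. The summed *cyp* level was 1069 and 877 CPM in N2 and 838 and 878 CPM in *set-25*, and the groups overlapped. The *ugt* sum was 423 and 478 against 59.3 and 66.3 CPM, and the *gst* sum 1285 and 1467 against 967 and 752 CPM. Glutathione S-transferases (*gst*) had 10 falls in 32 (31.25%), and 6 without the second N2 library. *gst-19* had 15.5 and 45.4 CPM in N2 and 0.592 and 1.09 CPM in *set-25*. Among 22 genes of oxidative and xenobiotic stress 5 (22.7%) were lower. They were the metallothionein *mtl-1*, the catalase *ctl-2*, the superoxide dismutase *sod-4*, *gst-10* and *gst-7*. With a library left out 2 to 4 genes of this list were called lower. *ctl-2* had 6.89 and 7.23 CPM in N2 and 1.13 and 0.523 CPM in *set-25*.

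Single genes of fat and propionate metabolism fell steeply, while a list of fatty acid and yolk lipid genes was mixed. *icl-1*, the bifunctional enzyme of the glyoxylate cycle that turns fat into sugar, had 689 and 849.5 CPM in N2 and 37.9 and 29.97 CPM in *set-25* (-4.21 ± 0.22, adjusted p = 6.26e-05), a 22.7-fold difference. *acdh-1*, an acyl-CoA dehydrogenase of propionate breakdown, had 140.3 and 540.3 CPM in N2 and 12 and 10.5 CPM in *set-25* (-4.64 ± 0.67). *fat-6*, a stearoyl-CoA desaturase, had 23.5 and 23.4 against 2.12 and 2.05 CPM (-3.197 ± 0.18). These 3 were at least 10-fold lower on the CPM scale in both *set-25* libraries, and the N2 libraries differed almost 4-fold for *acdh-1* alone. *acs-2*, an acyl-CoA synthetase, had 25.2 and 15.3 against 1.92 and 1.09 CPM, and *lbp-1*, a lipid-binding protein, 47.5 and 37 against 9.13 and 10.8 CPM. Of 26 fatty acid and yolk lipid genes 5 (19.2%, against 10.3% of all genes) were lower (*acdh-1*, *acs-2*, *fat-6*, *lbp-1* and *elo-1*). In the fit 16 lay below 0 and 10 above, with a median of -0.42. At an unadjusted p under 0.05, 10 were lower and 4 higher. The summed level of the list was 5625 and 5570 CPM in N2 and 5966 and 5402 CPM in *set-25*, and the groups overlapped. Other families were counted by gene name and not as fat genes. The dehydrogenases named *dhs* had 8 falls in 29 (27.6%), with 4 left without the second N2 or the second *set-25* library. Their summed level was 1530 and 1372 CPM in N2 and 1948 and 1157 CPM in *set-25*. Transthyretin-related genes (*ttr*) had 15 falls in 45 (33.3%). Of the nuclear hormone receptors, 33 of 183 were lower, with *nhr-68*, a regulator of propionate breakdown, at 9.32 and 19.2 CPM in N2 and 1.53 and 1.14 CPM in *set-25*. Leaving out a library left 14 to 25 of these receptors lower, the fewest without the second N2 library.

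Of 24 apical junction and polarity genes 2 (8.33%, against 10.3% of all genes) were lower, *let-805* and *mup-4*, and 15 lay above 0 in the fit. *let-805* encodes myotactin and *mup-4* a transmembrane protein of the fibrous organelles, the hemidesmosome-like structures of hyp7. *let-805* had 94.8 and 109 CPM in N2 and 21.6 and 23.4 CPM in *set-25* (-1.89 ± 0.13, adjusted p = 9.38e-05), and *mup-4* had 37.6 and 73.6 against 4.09 and 4.71 CPM (-3.38 ± 0.34). Outside that list, *unc-52*, the perlecan of the basement membrane under muscle, had 62.8 and 97.5 against 8.34 and 11.1 CPM (-2.76 ± 0.25). *ajm-1*, whose reporter was part of the sort, had 291 and 252 CPM in N2 and 384 and 327 CPM in *set-25* and was not called. Of 20 vacuolar ATPase genes 2 (10%, against 10.3% of all genes) were lower, while all 20 lay below 0 in the fit and 17 were lower at an unadjusted p under 0.05. The called genes were the *a* subunits *vha-5*, found at the apical membrane of hyp7, from 219 and 200.2 to 49.8 and 45.6 CPM, and *vha-7*, from 7.03 and 5.19 to 0.691 and 0.333 CPM.

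Many processes had no called gene. Ribosomal proteins (44 *rpl* and 31 *rps* genes) had 0 calls by edgeR, with 28 and 24 higher at an unadjusted p under 0.05. The median fitted change was 0.34 in both families, and 0.04 for *rpl* on library totals. All tested genes above 100 CPM in N2 had a median fitted change of 0.30. Oxidative phosphorylation had 0 calls in 32 genes (3 higher at an unadjusted p under 0.05). Among 25 genes of H3K9 methylation and anchoring 0 were called (0 by DESeq2, and 7 above and 1 below N2 at an unadjusted p under 0.05). The Wnt pathway had 0 of 28 called, DESeq2 called 3 lower, and an unadjusted p under 0.05 was found for 3 above and 8 below N2. Germline genes, which H3K9 methylation is known to repress in somatic cells, had 0 of 24 called (5 higher at an unadjusted p under 0.05, 0 by DESeq2). *pgl-1*, a germ granule gene, had 151 and 76 counts in the N2 libraries against 101 and 152, and the groups overlapped.

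Markers of other cell types were counted next. Of 13 tested gut genes 4 (30.8%, against 10.3% of all genes) were lower (*asp-1*, *lys-1*, *ifb-2* and *spp-5*). In the fit 12 of the 13 lay below 0, with a median of -2.03. At an unadjusted p under 0.05, 11 were lower and 0 higher, and DESeq2 called 7 lower. The summed level of the list was 299 and 186 CPM in N2 and 71.7 and 48.5 CPM in *set-25*. Without the first N2 or the second *set-25* library edgeR called 0 gut genes. *asp-1*, a gut protease, had 109 and 65.0 CPM in N2 and 14.1 and 9.18 CPM in *set-25*. Of 23 neuronal genes 6 (26.1%) were lower, among them *rab-3* (4.73 and 4.75 against 1.48 and 1.71 CPM). With a library left out 1 to 8 were lower, the fewest without the second N2 library. In the fit 20 of the 23 lay below 0, with a median of -1.04. At an unadjusted p under 0.05, 16 neuronal genes were lower and 3 higher. The summed neuronal level was 1180 and 1123 CPM in N2 and 1813 and 1533 CPM in *set-25*, a sum set by *unc-119* (759 and 718 against 1455 and 1222 CPM), which was chosen after its values were seen. Of 15 muscle genes 2 (13.3%, against 10.3% of all genes) were lower (*mup-2* and *tnt-2*). Without either N2 or the second *set-25* library 0 muscle genes were called. In the fit 11 of the 15 lay below 0 and 4 above, with a median of -0.41. The summed muscle level was 10044 and 10187 CPM in N2 and 13473 and 12209 CPM in *set-25*, a sum that includes the abundant *unc-54* given above. Pharynx genes had 0 of 11 called (3 higher at an unadjusted p under 0.05). In sorted pools, fewer cells of a type and less RNA per cell cannot be told apart, and the part of other cells in the falls was not tested. *icl-1*, *acdh-1*, the *ugt* and the *cyp* genes are also expressed in gut.

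The 43 risen genes held few members of any list. The largest rise on the scale of the call rule was that of *bath-34*, a gene of the BTB and MATH domain family, which had 2.44 and 1.38 CPM in N2 and 21 and 21.8 CPM in *set-25* (3.76 ± 0.35, adjusted p = 0.00022). K09F6.10 had 4.59 and 5.41 CPM in N2 and 23.9 and 20.03 CPM in *set-25* (2.43 ± 0.18), and *sdz-35* 0.562 and 0.276 against 3.35 and 3.57 CPM. *set-10*, a SET domain gene, had 43.5 and 37.5 CPM in N2 and 117 and 99.5 CPM in *set-25* (1.71 ± 0.14). In these 4 both *set-25* libraries lay at least 2-fold above both N2 libraries. The chemoreceptor genes *srt-42*, *srw-85* and *srj-23* were also among the 43. Other chemoreceptor genes fell, among them *srt-59*, *srh-268* and *str-144*. The *srt* genes had 1 rise and 1 fall in 4 tested, and *srw* 1 rise in 5. The *srh* genes had 1 fall in 12 and *str* 1 fall in 4.

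*ddx-15*, a spliceosomal helicase and another of the 43 risen genes, had 70.7 and 65.3 CPM in N2 and 139 and 141 CPM in *set-25* (1.33 ± 0.14). *rsr-2*, an SR-related splicing protein, had 15.1 and 12.59 against 35 and 35.8 CPM, and *sluh-7*, a second-step splicing factor, 53.1 and 41.0 against 94.3 and 94.7 CPM. The cap-binding gene *ncbp-2*, chosen after its values were seen, had 16.44 and 21.9 against 42 and 35.8 CPM. The groups of these 4 did not overlap, and the calls of *ddx-15* and *sluh-7*, which lie close to 2-fold, were lost without the second N2 library. No list of splicing or RNA-processing genes was counted, so these 4 do not show how such genes changed as a group. The small heat shock gene *hsp-16.41* had 1044 and 1193 CPM in N2 and 2794 and 3284 CPM in *set-25* (1.73 ± 0.25, adjusted p = 0.00147). *hsp-16.2* had 718 and 832 against 1889.8 and 2101 CPM. They were the 2 rises among 18 tested heat shock and ER stress genes, of which 11 were higher at an unadjusted p under 0.05, and *atf-4* was the 1 fall. *hsp-16.41* lost its call without the first N2 library, and *hsp-16.2* without either. The *hsp-16* genes are close copies of each other. Outside the list and chosen after their values were seen, *ire-1*, the sensor of unfolded protein in the ER, had 20.7 and 12.9 against 41.5 and 46.0 CPM, and *aip-1*, an arsenite-inducible proteasome partner, 173 and 215 against 356 and 424 CPM.

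Falls were most frequent among genes of middle level in N2. Of 2803 tested genes between 5 and 20 CPM in N2, 17.2% were lower. The share was 11.7% of 2656 between 1 and 5 CPM, 11.9% of 3198 between 20 and 100 CPM and 7.38% of 1449 above 100 CPM. It was 0.523% of 2485 under 1 CPM, where few counts limit what can be called. From the lowest to the highest of these levels the median fitted change of all genes was -0.74, -0.72, -0.03, 0.11 and 0.30. The medians given for lists and families were not adjusted for level. Under 5 RPKM in N2 were 29.7% of the falls, 44.2% of the rises and 44.2% of all genes tested. By chromosome the share lower was 15.1% on V, 12.2% on X, 10.5% on II, 9.54% on IV, 7.65% on III and 6.62% on I. Of 1287 falls followed by a tested gene along the chromosome, whatever its strand, 268 (20.8%) had that next gene lower as well. The share lower was 10.3% over all genes and, as given, 15.1% on V. There were 41 runs of 3 or more neighbouring falls, and the number expected from these shares was not computed. The longest run held 8 genes on V, *cyp-34A8*, *cyp-34A9*, *nlp-34*, *nlp-31*, *nlp-30*, *nlp-29*, *nlp-28* and *nlp-27*. Another run of 4 on V held *ugt-8*, *ugt-14*, *ugt-13* and H23N18.5, and duplicated families lie side by side on this chromosome.

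**Figure D4:**
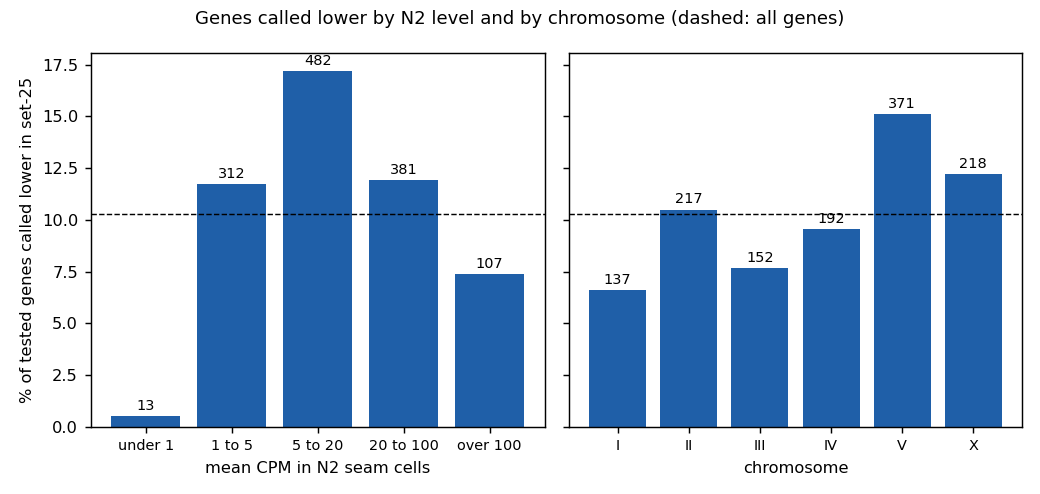
Share of tested genes called lower in *set-25* by mean CPM in N2 (left) and by chromosome (right), with the number of genes above each bar and the share of all genes dashed (10.3%). The bar for 5 to 20 CPM (482 genes) and the bar for V (371 genes) are the highest.

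The *set-25* libraries were next set against *met-2* libraries, which answers whether loss of the trimethylating enzyme differed from loss of MET-2 in the same cells. In *set-25*, 430 genes (3.42%) were lower than in *met-2* and 12 (0.0953%) were higher. Of the 430, only 198 were also called lower than in N2. The 430 include genes that were higher in *met-2* than in N2. All 5 tested *enu* genes were among them, with a summed level of 21.6 and 16.8 CPM in N2. That sum was 552 and 549 CPM in *met-2* and 22.7 and 23.5 CPM in *set-25*. Of 24 germline genes 8 were lower in *set-25* than in *met-2*. Without either *met-2* library 148 or 217 genes were lower and 1 was higher. For *icl-1*, *osm-11* and *nlp-33* the *met-2* libraries lay between N2 and *set-25*. *icl-1* had 108 and 93.1 CPM in *met-2*, and the difference of *set-25* from *met-2* was -1.40 ± 0.20 (adjusted p = 0.00394). *osm-11* had 203 and 189 CPM in *met-2* (-1.53 ± 0.14, adjusted p = 0.000331) and *nlp-33* 69.3 and 61.2 CPM (-2.73 ± 0.31, adjusted p = 0.00113). For other genes the *met-2* libraries lay at or above N2. *vha-7* had 20.3 and 17 CPM in *met-2*, above N2, and the difference was -5.02 ± 0.31 (adjusted p = 5.03e-05). *lbp-1* had 34.2 and 38.8 CPM in *met-2*, overlapping the N2 values (-1.71 ± 0.16, adjusted p = 0.000451). *bath-34* and K09F6.10 had 55.1 and 51.0 CPM and 52.5 and 58.2 CPM in *met-2*, above *set-25*. The comparisons of *met-2* and of *set-25* with N2 share the N2 libraries, so they are not independent. Over the 1295 falls the median was -2.81 in *set-25* and -1.34 in *met-2*, and over the 43 rises 1.67 and 1.58. In *met-2* against N2, 1230 falls (95.0%, against 52.8% of all genes) lay below 0 and 365 were called lower. All 43 rises lay above 0 there and 24 were called higher. The genes were chosen by their *set-25* values, so these medians do not compare the size of the effects of the mutants.

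Loss of *set-25* in a *met-2* background went the other way for most of these genes. The *met-2 set-25* libraries were compared with *met-2* libraries, none of which enters the comparison of *set-25* with N2. There 773 genes (6.14%) were higher and 290 (2.3%) lower. Of the 1295 falls, 1216 (93.9%) lay above 0 in that comparison, with a median of 1.44, against 56.1% and a median of 0.10 for all genes tested. By the call rule 562 of them were higher and 16 lower. Of the 43 rises 37 lay below 0, with a median of -0.98, and 12 were called lower. The called numbers depended on single libraries: between 51 and 379 genes were higher with 1 of the 4 libraries left out, the fewest without the second *met-2* library, and 47 to 328 of the falls. The direction did not, with 1174 to 1227 falls above 0. The summed gut list was 190 and 92 CPM in *met-2* and 625 and 827 CPM in the double mutant. Genes with at least 10 counts numbered 11217 and 10804 in *met-2* and 12898 and 12118 in the double mutant, with TMM factors of 0.948 and 0.939 against 1.28 and 1.17. Mitochondrial genes took 1.69% and 1.73% of *met-2* counts and 2.18% and 2.11% of double mutant counts. The part of these differences in the reversal was not tested. On library totals 1349 genes were higher and 248 lower, and with the 2-fold rule on the fitted change 652 and 471.

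The difference between both effects was tested as an interaction, (*met-2 set-25* minus *met-2*) minus (*set-25* minus N2). It was above 0 for 2047 genes (16.3%) and below 0 for 1400 (11.1%) at an adjusted p under 0.01, whatever the fold. On library totals the split was 3332 and 464, and with size factors of DESeq2 1948 and 1702. The test shares the *set-25* and N2 libraries with the choice of the falls, so the 1227 falls above 0 in it are a description. *col-80* had 112 and 55.6 CPM in the double mutant and 3.41 and 3.55 CPM in *met-2*, and the interaction was 11.75 ± 0.72 on the log2 scale (adjusted p = 2.63e-05). *nlp-33* had 448 and 335 CPM in the double mutant (7.61 ± 0.44, adjusted p = 2.63e-05). *icl-1* had 632 and 445 CPM (6.25 ± 0.30, adjusted p = 1.95e-05). In each of the 3 both double mutant libraries lay at least 4-fold above *met-2*. *osm-11* had 759.6 and 822 CPM (4.60 ± 0.20) and *let-805* 197 and 186 CPM (3.25 ± 0.18), both above N2, and *unc-52* had 114 and 99.2 CPM (4.38 ± 0.34).

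For risen genes the interaction was below 0. *hsp-16.41* had 2397 and 2322 CPM in *met-2* and 631 and 1045 CPM in the double mutant (-3.58 ± 0.36, adjusted p = 0.000123). *bath-34* had 8.36 and 15 CPM in the double mutant (-6.31 ± 0.46), above N2 and below *set-25*, and *set-10* had 80.8 and 80.5 CPM in *met-2* and 52.4 and 53.6 CPM in the double mutant (-2.69 ± 0.20). K09F6.10 had 38.2 and 37.5 CPM in the double mutant, above N2 in every mutant library, and its interaction was -3.35 ± 0.24. *mlt-10*, which was not called in *set-25*, had 345 and 319 CPM in *met-2* and 71.9 and 69.7 CPM in the double mutant, with an interaction of -3.44 ± 0.16. The body-shape collagens had a summed level of 77008 and 76010 CPM in *met-2* and 33681 and 40395 CPM in the double mutant.

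**Figure D5:**
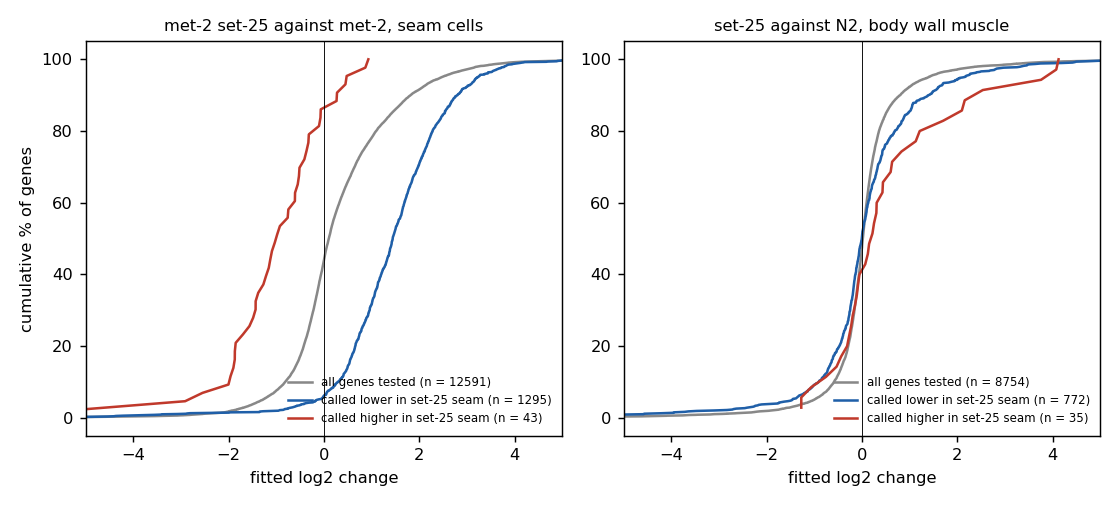
Cumulative share of genes by fitted log2 change in the double mutant against *met-2*, seam cells (left), and in *set-25* against N2 body wall muscle (right), for all genes tested (grey) and for genes called lower (blue) or higher (red) in *set-25* seam cells. On the left the blue line lies right of the grey line and the red line left of it (medians 1.44, 0.10 and -0.98). On the right all lines cross close to 0 (medians -0.01, 0.02 and 0.22).

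In body wall muscle, sorted by a red reporter under the *myo-3* promoter, loss of *set-25* gave 0 calls among 9167 genes by edgeR, with 518 (5.65%) at an unadjusted p under 0.05. Of the seam falls 772 had a value in muscle. Their median there was -0.01, 49.1% lay above 0, and 52 (6.74%) had an unadjusted p under 0.05. The difference of effects between seam cells and muscle was tested over 16 libraries. Of 12887 genes, 199 (1.54%) had a lower effect in seam cells and 32 (0.248%) a higher one, of which 190 were seam falls and 6 seam rises. This test shares the *set-25* and N2 seam libraries with the choice of the falls and rises, so the overlap is a description. When a single library was left out the numbers ranged from 45 to 236 and from 7 to 56, with the fewest lower effects without the second *set-25* seam library and the fewest higher ones without the second N2 seam library. With N2 and *set-25* fitted alone they were 28 and 0.

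Some of these genes were abundant in muscle. *icl-1* had 7328 and 8286 CPM in N2 and 5484 and 8863 CPM in *set-25* muscle, and the effect in seam cells differed from it by -4.12 ± 0.49 on the log2 scale (adjusted p = 0.000533). *unc-52* had 279 and 273 CPM in N2 and 279.8 and 284 CPM in *set-25* muscle (-2.79 ± 0.32, adjusted p = 0.000427). *hsp-16.41* had 614 and 810.5 CPM in N2 and 677 and 469.5 CPM in *set-25* muscle, and its effect was 2.08 ± 0.38 higher in seam cells (adjusted p = 0.00598). *col-80* (-8.87 ± 1.00), *nlp-33* (-5.94 ± 0.74) and *osm-11* (-3.67 ± 0.60) were below 10 CPM in every N2 and *set-25* muscle library. Strain, sort and experiment follow the tissue in these data and cannot be told apart from it.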

How the data were processed

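RNA was sequenced from cells sorted from dissociated L3 larvae, and the 2 tables used here hold the seam cell libraries and the body wall muscle libraries. The authors deposited raw counts of reads for each gene. By the methods of the study, they made Smart-Seq2 libraries, aligned reads to ce10 with hisat2 through QuasR, and counted unique reads in WS220 exons on the annotated strand. The series text describes ribosomal RNA depletion instead. Smart-Seq2 reads do not usually keep strand, so overlapping antisense genes are uncertain, as are near-identical copies. RPKM used the deposited exonic width. The degron table was not used.

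The 8 seam libraries were fitted together with edgeR 4.0.16 in R 4.3.3 (TMM factors, filterByExpr, quasi-likelihood test, no covariate), after a check on simulated data. Interactions joined 16 libraries for the tissue comparison. Genes were called at an adjusted p under 0.01 and over 2-fold on log2(scaled count + 8), a scale that understates low genes. DESeq2 1.42.0, other scalings, filters, thresholds, the replicate block and the omission of each library were alternatives. A count of 3 was the floor, which covers counting error only, since reads carry no molecular identifiers. P-values rest on 2 libraries a group.

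Genes were named where they had the 10 largest changes or smallest p in a direction, or were among the 4 largest called changes of a list or family. The lists and members were chosen with earlier results of these data known. Names came from a table that covers 19182 of 20392 IDs, and gene order from the annotation of a later assembly, which placed 19870 IDs. Other tables of the series were not used here.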

Additional observations from a re-analysis of the deposited data

Results flagged for a closer look

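The effect of *set-25* loss differed between N2 and *met-2* backgrounds, by a test of the difference itself, in 2047 genes above 0 and 1400 below 0. Among genes named in the text these were *col-80* (11.75, adjusted p = 2.63e-05), *nlp-33* (7.61, adjusted p = 2.63e-05), *icl-1* (6.25, adjusted p = 1.95e-05), *unc-52* (4.38, adjusted p = 5.09e-05), *osm-11* (4.6, adjusted p = 1.95e-05) and *let-805* (3.25, adjusted p = 2.39e-05), all on the log2 scale. Below 0 were *bath-34* (-6.31), *hsp-16.41* (-3.58), *mlt-10* (-3.44), K09F6.10 (-3.35) and *set-10* (-2.69), with adjusted p from 1.95e-05 to 0.000123 in edgeR. These 11 genes passed in all 13 alternatives. Most were named for their change in *set-25* against N2, which the difference itself contains, so their passing is no independent evidence.

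The effect also differed between seam cells and muscle, in 32 genes above 0 and 199 below. Named genes were *col-80* (-8.87), *nlp-33* (-5.94), *icl-1* (-4.12), *osm-11* (-3.67), *unc-52* (-2.79) and *hsp-16.41* (2.08). Of 14 alternatives, *col-80* and *icl-1* passed in 14, *unc-52* in 13, *nlp-33* in 12, *osm-11* in 8 and *hsp-16.41* in 4. The same limit holds for these genes. Tissue and experiment cannot be told apart here.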

How the results depend on the processing

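For *set-25* against N2 (1295 lower, 43 higher), the count of lower genes moved most without the low-count filter, with both groups fitted alone and without the second N2 library, and the count of higher genes with the fold thresholds. Without the low-count filter 2183 were lower and 95 higher. Among the higher genes 72 were called by DESeq2, 126 with the 2-fold rule on the fitted change and 580 with no fold threshold, and 640 were lower when both groups were fitted alone. With a library left out 688 (without the second N2 library) to 1112 were lower and 26 to 52 higher. Against *met-2* (430 lower, 12 higher), DESeq2 called 895 and 26, no filter 1362 and 42, the groups alone left 5 higher, no fold threshold gave 58 higher, and a library left out gave 148 to 374 and 1 to 11. The interaction (2047 above 0, 1400 below) became 3332 and 464 on library totals, and 1303 to 2051 and 741 to 1451 with a library left out. The tissue difference (32 above 0, 199 below) became 190 and 608 by DESeq2, 185 and 814 without the filter, 17 and 314 on library totals, 0 and 28 with the 8 libraries of both genotypes alone, and 7 to 56 and 45 to 236 with a library left out. For *met-2 set-25* against *met-2* (773 higher, 290 lower), alternatives chosen after seeing the data gave 1349 higher on library totals, 471 lower with the fitted fold, and 51 to 379 higher and 137 to 222 lower with a library left out. The cause of these shifts was not tested, beyond fewer samples or more genes in the fit.

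Of 181 named genes 0 changed direction under the 13 alternatives. Calls lost numbered 57 with the groups alone, 58 and 35 without the second and the first N2 library, 40 and 27 without the second and the first *set-25* library, 8 with the replicate block and at most 6 under the other settings.

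Replicate numbers are shared across genotypes, but deviations of same-numbered libraries from their group means correlated between -0.171 and 0.184 over 8708 genes. The correlation was 0.176 between N2 and *set-25* and 0.184 between *met-2* and *set-25*. With 2 libraries a group, each pair of groups gives 1 such value, and neither the labels nor the methods tie a number to a shared day or culture, so the numbers were not taken as pairs. With the replicate block 1264 genes were lower and 54 higher in *set-25* against N2, 410 and 11 against *met-2*, 2028 and 1412 above and below 0 in the interaction, and 23 and 133 in the tissue difference. With 2 libraries a group and few counts under 1 CPM, small or low changes could not be detected.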
